A study of Mus musculus with 4 samples.

Results

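The 9 genes described here were grouped as regulators of histone removal in spermatids. They are the bromodomain genes *Brdt*, *Brd2* and *Brd3*, the genes *Epc1* and *Kat5* of an acetyltransferase complex, and the remodeller gene *Chd5*. The others are the ubiquitin ligase gene *Rnf8*, the demethylase gene *Kdm3a* and the proteasome activator gene *Psme4*. All 9 were named by their known roles, and all probe sets that the array annotation pairs with exactly 1 of these symbols were taken. This gave 23 probe sets out of 45037 (Affymetrix control spots left aside), or 9 of 18193 genes with a probe set of their own. The array study compared the testes of *Ccnyl1*-/- mice (2 mice) with those of WT mice (2 mice), all of the strain C57BL/6 and 2 months old, with 1 Affymetrix array for each mouse. The labels call the first group Ccnyl1 knockout. The methods describe it as the line *Ccnyl1* tm1a (EUCOMM) Wtsi. This is an allele of the KO-first type whose LacZ cassette every cell of the body carries, so it is not limited to germ cells. The whole testis was taken, so each value averages all germ cells and somatic cells.

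In round and elongating spermatids the nucleus exchanges nearly all of its histones for transition proteins and then for protamines, which pack the DNA of the sperm head. Histone H4 is heavily acetylated just before this step, bromodomain proteins bind the acetylated tails, remodellers and ubiquitin ligases loosen the nucleosomes, and a proteasome with a special activator degrades the histones that leave. In mice, loss of *Brdt* function, *Chd5*, *Epc1*, *Kdm3a* or *Psme4* in the male germ line is known to disturb this exchange or sperm formation.

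To show what kind of gene was measured, the 250 bases before the start site are given for *Rnf8*, the gene with the most negative difference between the genotypes, and for *Brdt*, whose expression is restricted to male germ cells. They come from RefSeq on GRCm38.p6 and read 5′ to 3′ on the strand of the gene. Capitals mark the E-box, spelled CACGTG, the promoter element CCAAT, and the GC box, spelled GGGCGG, each as found by a search of both strands.
Rnf8 (chr17:29614539-29614788, plus strand): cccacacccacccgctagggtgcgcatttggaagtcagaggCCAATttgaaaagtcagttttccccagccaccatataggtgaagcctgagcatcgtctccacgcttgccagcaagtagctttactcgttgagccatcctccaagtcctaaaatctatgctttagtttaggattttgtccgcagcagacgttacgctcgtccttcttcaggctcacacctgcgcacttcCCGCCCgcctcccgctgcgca
Brdt (chr5:107330944-107331193, plus strand): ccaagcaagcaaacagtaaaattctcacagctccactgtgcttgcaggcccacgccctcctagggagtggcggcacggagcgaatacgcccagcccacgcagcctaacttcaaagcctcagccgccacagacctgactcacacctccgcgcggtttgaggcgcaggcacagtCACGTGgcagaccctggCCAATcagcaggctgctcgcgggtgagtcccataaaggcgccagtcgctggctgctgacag

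Of the 9 genes, 8 were matched to such windows (not *Epc1*), 14 windows in all, some of which overlap. Between 0 and 37 CpG were counted in a window, and 13 of the 14 lay above the median of 6 over all 32851 windows. GGGCGG was found in 9 of the 14 windows and in 32.7% of all windows. CCAAT was found in 4 of the 14 and in 33.8% of all, and CACGTG in 2 of the 14, in *Brdt* and *Kat5*, and in 6.02% of all. TATAAA was found in 0 of the 14 windows (12.4% of all) and TGACGTCA, the cAMP response element, in 0 (1.55% of all).

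The array values are MAS5 signals, intensities on a linear scale. Of the 23 probe sets, 21 reached the minimum, a 4-array mean signal of 32, and were tested among 32438 probe sets. Log2 fold changes are of *Ccnyl1*-/- over WT on the scale of log2(signal + 16), which understates the change of dim probe sets, and p-values are from limma with Benjamini-Hochberg adjustment over all tested probe sets. *Ccnyl1* itself, on its only probe set, had signals of 921 and 969 in *Ccnyl1*-/- and 2256 and 2425 in WT testes (log2 fold change -1.29, standard error 0.09, adjusted p = 0.00463 from limma). The log2 signals of any pair of arrays correlated at 0.977 to 0.980 across probe sets, and the ratio of the 3′ to the 5′ probe set of *Actb* was between 1.74 and 1.87 on all arrays. A signal is not a level that can be set against that of another probe set. Several probe sets of 1 gene are not replicates, and 3 of *Psme4* and 3 of *Brd3* were designed from a single sequence record each.

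None of the 9 regulators of histone removal differed between *Ccnyl1*-/- and WT testes past the test. *Rnf8* had the most negative value, with 80.7% of its WT signal. The bright probe sets of *Brdt*, *Kdm3a*, *Kat5* and *Epc1* lay between 95.2% and 102% of WT, and those of *Brd2*, *Brd3* and *Psme4* between 93.8% and 108%, where bright means a mean signal of at least 1000. Limma called 0 of the 21 tested probe sets (smallest adjusted p = 0.81), where it called 0.0123% of all tested probe sets. At an unadjusted p under 0.05 from limma there was 1 of the 21, *Rnf8*, against 6.05% of all tested probe sets. The methods' t-test gave 0 after adjustment and 2 before it, *Rnf8* and 1 probe set of *Psme4*, and its share over all probe sets is not given here. That probe set (1426824_at) had a log2 fold change of only 0.05, with an SD within genotype of 0.0035 on the log2 scale. In these bulk samples, fewer cells of a type and less RNA in each cell cannot be told apart.

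**Figure D1:**
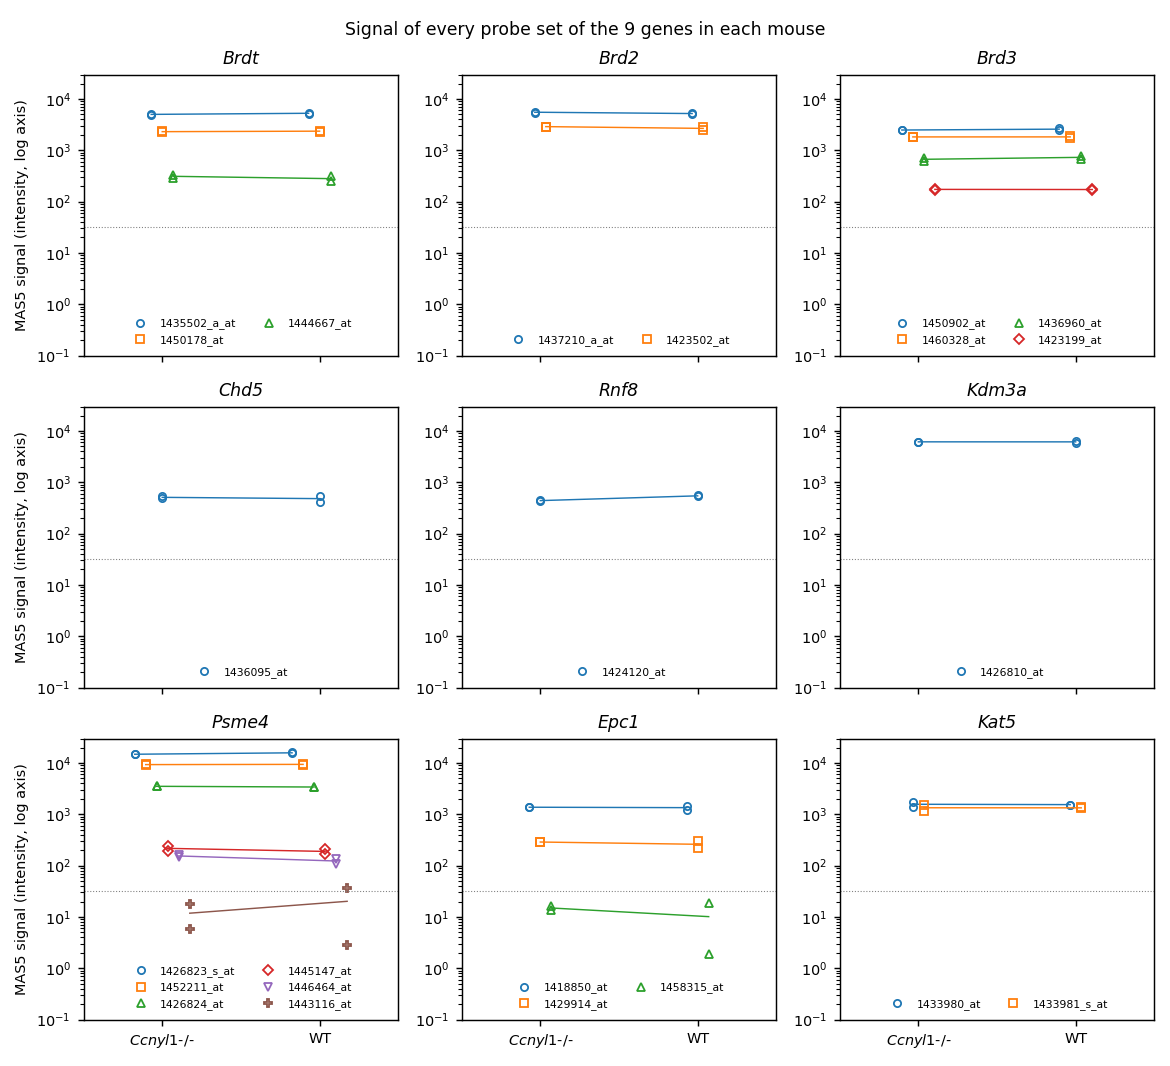
MAS5 signal (intensity, log axis) of all 23 probe sets of the 9 genes in *Ccnyl1*-/- and WT testes, with 1 point for each mouse, 1 symbol shape for each probe set, a line between the means of the genotypes, and a dotted line at the minimum mean signal of 32. The lines run nearly level, and 1 probe set each of *Psme4* and *Epc1* falls below the minimum.

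*Brdt* encodes the testis member of the BET family, whose bromodomains bind acetylated histone tails. Its brightest probe set (1435502_a_at) had signals of 5099 and 4935 in *Ccnyl1*-/- and of 5202 and 5340 in WT testes. Both *Ccnyl1*-/- mice lay below both WT mice, by a gap of 1.96% of the WT mean, and the log2 fold change of -0.07 (95% interval -0.21 to 0.06, adjusted p = 0.886 from limma) did not pass. The next probe set (1450178_at) had 2356 and 2263 in *Ccnyl1*-/- against 2413 and 2311 in WT testes, so that the genotypes overlapped (log2 fold change -0.03). Another (1444667_at), a dimmer one, had 337 and 286 in *Ccnyl1*-/- against 249 and 312 in WT testes. Its log2 fold change of 0.15 had the opposite sign with a wide interval (-0.25 to 0.54), and without WT replicate 1 it was -0.0081. For *Brdt*, the intervals of the bright probe sets thus ran from -13.3% to 4.48% and from -13.2% to 10.2% of WT.

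*Brd2* and *Brd3* encode BET proteins that most tissues make. *Brd2* had positive values on both probe sets, and neither passed the test. The brighter one (1437210_a_at) had 5705 and 5349 in *Ccnyl1*-/- and 5144 and 5274 in WT testes, a log2 fold change of 0.08 (95% interval -0.06 to 0.22, adjusted p = 0.872 from limma). Without 1 mouse it ran from 0.038 (without *Ccnyl1*-/- replicate 1) to 0.13 (without *Ccnyl1*-/- replicate 2), and with arrays scaled to one median it was 0.0063. The genotypes did not overlap there, nor on the other probe set (1423502_at), with 2896 and 2895 in *Ccnyl1*-/- against 2881 and 2472 in WT testes. That second difference, a log2 fold change of 0.12, came from 1 WT mouse, since WT replicate 1 lay only 0.548% of the WT mean below the nearer *Ccnyl1*-/- mouse. Without WT replicate 2 it was 0.0075, and without WT replicate 1 it was 0.23.

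For *Brd3*, the genotypes overlapped on all 4 probe sets. The brightest (1450902_at) had 2446 and 2527 in *Ccnyl1*-/- and 2721 and 2452 in WT testes, and the second (1460328_at) had 1847 and 1802 in *Ccnyl1*-/- and 1890 and 1763 in WT testes. Their log2 fold changes were -0.05 and -0.0008. The other 2 had -0.12 (1436960_at, 720 and 616 in *Ccnyl1*-/- against 791 and 668 in WT) and 0.0074 (1423199_at, 166 and 180 in *Ccnyl1*-/- against 175 and 169 in WT). The smallest adjusted p of *Brd3* was 0.911 (limma).

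*Epc1* encodes the scaffold of the TIP60 (NuA4) complex and *Kat5* its catalytic acetyltransferase, which acetylates histones H4 and H2A. *Epc1* had signals of 1363 and 1389 in *Ccnyl1*-/- and of 1234 and 1467 in WT testes on its brightest probe set (1418850_at). The *Ccnyl1*-/- mice lay between the WT mice, and the log2 fold change was 0.03 (95% interval -0.21 to 0.27, adjusted p = 0.976 from limma). On the second probe set (1429914_at), with 288 and 289 in *Ccnyl1*-/- against 299 and 223 in WT testes, the WT mice stood in the opposite order, and the log2 fold change was 0.15. The last probe set (1458315_at) was too dim to be tested, at 13.9 and 16.1 in *Ccnyl1*-/- against 18.3 and 1.93 in WT testes.

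*Kat5* had means of 101.6% and 100.4% of WT on its probe sets, with a wide spread between the *Ccnyl1*-/- mice. Its brighter probe set (1433980_at) had 1403 and 1740 in *Ccnyl1*-/- testes, against 1543 and 1551 in WT testes. The other (1433981_s_at) had 1162 and 1525 in *Ccnyl1*-/- testes, against 1362 and 1315 in WT testes. On both, *Ccnyl1*-/- replicate 1 was the lowest of the 4 mice and *Ccnyl1*-/- replicate 2 the highest. The *Ccnyl1*-/- mice stood 0.31 and 0.39 apart on the log2 scale, the WT mice 0.0069 and 0.05. The log2 fold changes were 0.014 (95% interval -0.24 to 0.27) and -0.0071 (-0.30 to 0.29). Without *Ccnyl1*-/- replicate 1 they were 0.17 and 0.19, and without *Ccnyl1*-/- replicate 2 they were -0.14 and -0.20, none past the test.

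*Chd5* encodes a chromodomain helicase of the nucleosome remodelling type that is strongly made in spermatids. Its only probe set (1436095_at) had 486 and 534 in *Ccnyl1*-/- against 549 and 413 in WT testes. The *Ccnyl1*-/- mice lay between the WT mice, which were 0.40 apart on the log2 scale, and the log2 fold change was 0.09 (95% interval -0.27 to 0.46, adjusted p = 0.95 from limma). Without WT replicate 1 it was 0.29 and without WT replicate 2 it was -0.11, so the direction rested on single mice.

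*Rnf8* encodes a RING-finger ubiquitin ligase that modifies histones H2A and H2B. Its only probe set (1424120_at) had signals of 428 and 452 in *Ccnyl1*-/- testes, against 556 and 535 in WT testes. Both *Ccnyl1*-/- mice lay below both WT mice, with a gap of 15.2% of the WT mean, and the means were 440 ± 16.8 in *Ccnyl1*-/- and 545 ± 14.3 in WT testes (SD, n = 2 each). The log2 fold change was -0.30 (standard error 0.12, 95% interval -0.58 to -0.02), with an unadjusted p of 0.0394 and an adjusted p of 0.81 from limma, so it did not pass. Of the 21713 tested probe sets with a mean signal of at least 100, 888 (4.09%) had a value as low or lower. Without 1 mouse the log2 fold change ran from -0.34 to -0.26, and under no alternative was *Rnf8* called. With all mice kept, its unadjusted p from limma ran from 0.0223 (arrays scaled to one median) to 0.0536 (no variance trend). An exact permutation test of 2 against 2 mice cannot give a two-sided p below 0.333. The summed signals of macrophage markers (8 of 8 genes negative), of blood markers (3 of 3 tested genes negative) and of elongating spermatid markers (11 of 13 negative) were also below WT in both *Ccnyl1*-/- mice. Those of spermatocyte markers (7 of 13 genes positive) were above WT in both, but narrowly, at 99615 in the lower *Ccnyl1*-/- mouse against 99379 in the higher WT mouse. On the other marker lists the genotypes overlapped. Most elongating spermatid markers had mean signals of at least 5000, where 32.4% of all tested probe sets were positive. The macrophage and blood markers lay under 1000, where 57.8% were positive. The part of these cell types in the *Rnf8* value was not tested.

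*Kdm3a* encodes a demethylase of histone H3 that is known to act at the *Tnp1* and *Prm1* genes in mouse spermatids. Its only probe set (1426810_at) had 6195 and 6114 in *Ccnyl1*-/- and 5916 and 6379 in WT testes. The *Ccnyl1*-/- mice lay between the WT mice, at 100.1% of the WT mean, and the log2 fold change was 0.0027 (95% interval -0.14 to 0.14, adjusted p = 0.998 from limma). The interval thus ran from -8.95% to 10.2% of WT.

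*Psme4* encodes the proteasome activator that binds acetylated histones and directs their degradation in spermatids. Its brightest probe set (1426823_s_at) had 14967 and 14712 in *Ccnyl1*-/- testes, against 15549 and 16082 in WT testes. Both *Ccnyl1*-/- mice lay below both WT mice, by 3.68% of the WT mean, with a log2 fold change of -0.09 (95% interval -0.19 to 0.0076, unadjusted p = 0.0659 and adjusted p = 0.829 from limma). The second (1452211_at) had 9488 and 9154 in *Ccnyl1*-/- against 9565 and 9265 in WT testes, and the genotypes overlapped (log2 fold change -0.015). The next (1426824_at) ran the other way, with 3525 and 3510 in *Ccnyl1*-/- against 3404 and 3413 in WT testes. The mice of a genotype nearly coincided there, and the genotypes lay apart, but the log2 fold change was only 0.05 (95% interval -0.10 to 0.19). These 3 come from a single sequence record, and their 95% intervals overlapped.

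The tested dim probe sets of *Psme4* had positive values. One (1446464_at) had 148 and 161 in *Ccnyl1*-/- testes, against 137 and 110 in WT testes, which is the most positive log2 fold change of the 21 (0.30, 95% interval -0.18 to 0.78, adjusted p = 0.869 from limma). Another (1445147_at) had 240 and 194 in *Ccnyl1*-/- against 170 and 209 in WT testes (0.18), and the genotypes overlapped. Without WT replicate 2 these values were 0.16 and 0.32, and over the mice left out in turn they ran from 0.16 to 0.44 and from 0.042 (without *Ccnyl1*-/- replicate 1) to 0.33. The last (1443116_at), with 17.9 and 5.75 in *Ccnyl1*-/- against 37.5 and 2.88 in WT testes, was too dim to be tested.

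**Figure D2:**
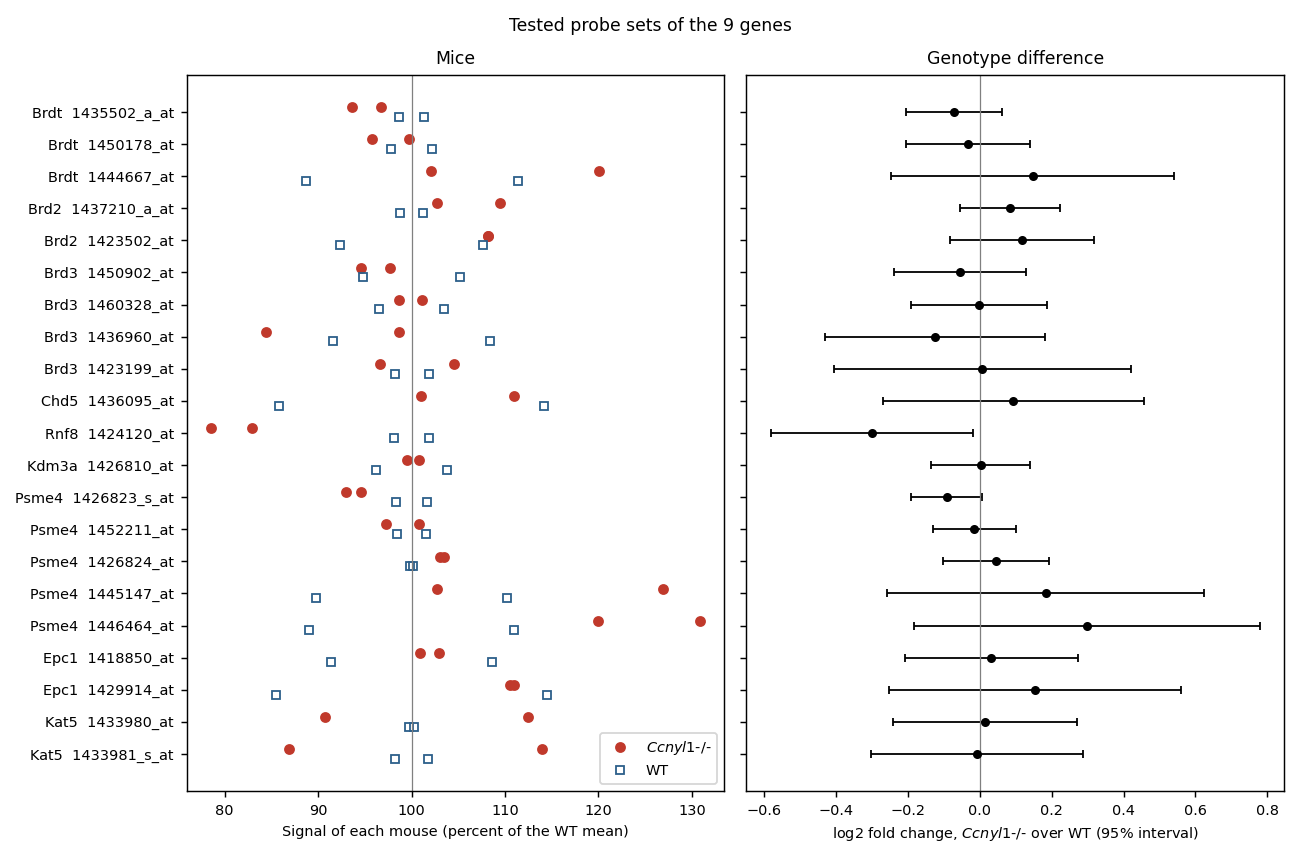
Left, the signal of each mouse as a percent of the WT mean of its probe set, for the 21 tested probe sets (red, *Ccnyl1*-/-; open blue, WT). Right, the log2 fold change of *Ccnyl1*-/- over WT with its 95% interval. The interval of *Rnf8* alone leaves out 0, and the mice of *Kat5* spread in *Ccnyl1*-/- while those of *Epc1* and *Chd5* spread in WT testes.

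Of the 21 tested probe sets, 12 lay above 0 and 9 below it. Their log2 fold changes ranged from -0.30 to 0.30, and the median was 0.0074. Over all tested probe sets the median was 0.02. With arrays scaled to one median the split of the 21 turned to 7 positive and 14 negative (median -0.064), where the median of all tested probe sets was -0.05. The genotypes did not overlap on 7 of the 21, against 35.9% of all tested probe sets. Of these 7, 3 were lower in *Ccnyl1*-/- testes (15.3% of all tested) and 4 were higher (20.6% of all tested), so the members' counts were close to those of the whole array. The median absolute log2 fold change was 0.071 for the 5 probe sets whose mean signal reached 5000 (0.060 over all tested probe sets in that range), 0.032 for the 8 from 1000 to under 5000 (0.073 over all) and 0.15 for the 8 from 100 to under 1000 (0.13 over all), so the sizes were below those of the array only in the middle range. For 19 of the 21 the 95% interval lay within 1.5-fold either way. These were all 13 with a mean signal of at least 1000, where 99.4% and 96.9% of all tested probe sets in the brighter and the middle range did so, and 6 of the 8 dimmer ones, against 57.8% of all. The other 2 were the dim probe sets of *Psme4* at 0.30 and 0.18, and their intervals lay within 2-fold.

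The split of signs differed by brightness, among the 9 genes and over the array. Of the 5 probe sets with a mean signal of at least 5000, 2 were positive and 3 negative (median -0.015). The 8 from 1000 to under 5000 split 4 and 4 (median 0.0067), and of the 8 under 1000, 6 were positive and 2 negative (median 0.12). All tested probe sets in these ranges had 32.4%, 46.4% and 57.8% positive values and medians of -0.036, -0.0095 and 0.045.

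**Figure D3:**
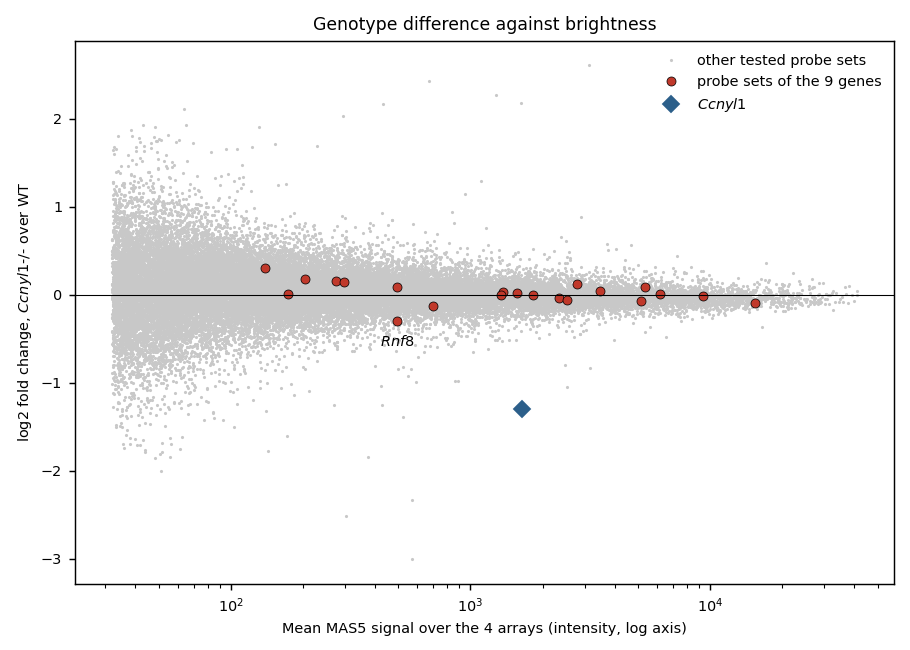
Each log2 fold change (*Ccnyl1*-/- over WT) plotted by the mean MAS5 signal of its probe set (log axis), with 1 point for each tested probe set, red for the 21 of the 9 genes and a blue diamond for *Ccnyl1* at -1.29. The 21 lie within the cloud of the other probe sets, with *Rnf8* at -0.30 near its lower side.

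Other genes of histone exchange were listed by role, 122 in 9 lists, of which 113 were tested on their brightest probe set. None passed the test (limma; 0.0196% of the 15268 genes tested passed), with 54 positive and 59 negative values and a median of -0.0038, against -0.0004 over all genes. At an unadjusted p under 0.05, 3 of the 113 were higher (2.85% of all genes) and 1 was lower (3.45% of all genes). The higher ones were *Actl6a*, *Kat7* and *Prm1*, and the lower one was *H2bl1*, a testis histone H2B. *Prm1* had 0.09 there, and -0.05 and 0.13 on its other probe sets.

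Among 12 other bromodomain readers, 7 were positive and 5 negative (median 0.02), with *Phip* at 0.16 and *Brd7* at 0.13 farthest. On its other tested probe sets *Phip* ran from -0.43 to 0.46, with -0.11 on the next brightest, and *Brd7* had -0.20 on its dimmer one. The 13 other subunits of the TIP60 complex split 8 and 5 (median 0.0032). *Actl6a*, an actin-related subunit, had 3339 and 3802 in *Ccnyl1*-/- against 2994 and 3138 in WT testes (log2 fold change 0.22, adjusted p = 0.797 from limma), while *Vps72* had -0.20. The 15 other acetyltransferases and deacetylases split 6 positive to 9 negative, and their median was -0.04. *Ep300*, which encodes the acetyltransferase p300, had 590 and 618 in *Ccnyl1*-/- against 535 and 439 in WT testes (0.31). *Kat7*, an acetyltransferase of the MYST family to which *Kat5* belongs, had 3039 and 3200 in *Ccnyl1*-/- against 2623 and 2760 in WT testes (0.21, adjusted p = 0.771 from limma).

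Of 9 other chromodomain helicases, 4 were positive and 5 negative (median -0.03), with *Chd9* at 0.37, where the genotypes overlapped, and *Chd3* at -0.29. On its dimmer tested probe set *Chd9* had -0.08. The 16 other ubiquitin genes, among them *Rnf168*, *Ube2n* and *Herc2* of the pathway of *Rnf8*, split 6 positive to 10 negative, and their median was -0.02. *Trp53bp1*, whose protein is drawn to ubiquitinated histones, was farthest at -0.17 and *Rnf40* next at -0.14. Of the 3 partners of *Rnf8* just named, *Rnf168* had -0.02, *Ube2n* -0.11 and *Herc2* -0.08, none past the test. *H2ax* and *Mdc1* of the same list went the other way, at 0.11 and 0.08, and did not pass either. *Phf7*, a ubiquitin ligase of spermatids, had -0.05. The 17 other lysine demethylases split 10 and 7 (median 0.01), with *Kdm5d* (0.47) and *Kdm4b* (0.46) both dim, and *Kdm3b*, the closest relative of *Kdm3a*, at -0.25.

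The 7 other proteasome activators and special core subunits had a median of -0.08, with *Psmb9* (-0.33) and *Psmb8* (-0.21), both dim immunoproteasome genes. *Psma8*, the core subunit of germ cells, had 0.04. Of 9 basic nuclear proteins and testis histones, 3 were positive and 6 negative (median -0.0056). *H1f6* was dim and farthest (-0.40), with 43.8 and 106 in *Ccnyl1*-/- against 87.1 and 107 in WT testes, so that the genotypes overlapped. *H2bl1* had 9839 and 10295 in *Ccnyl1*-/- against 10744 and 11401 in WT testes (-0.14, adjusted p = 0.797 from limma). *Tnp1* and *Prm1*, the genes at which *Kdm3a* is known to act, had -0.0018 and 0.09 on their brightest probe sets. The 15 other factors, among them topoisomerase, poly(ADP-ribose) and histone chaperone genes, had a median of -0.0012, with *Top2b*, which encodes a topoisomerase, at 0.23 and *Pygo2*, a reader of histone H3, at 0.22.

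**Figure D4:**
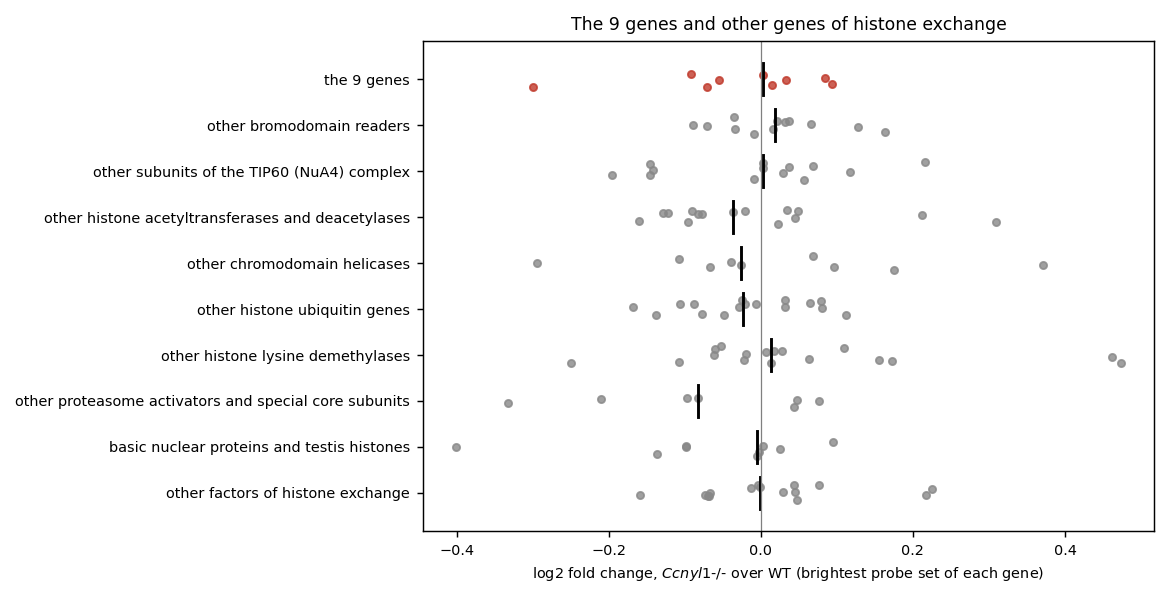
Log2 fold change (*Ccnyl1*-/- over WT) on the brightest probe set of each gene, for the 9 genes (red) and for 9 lists of other genes of histone exchange (grey), with a bar at each median. The medians lie between -0.08 for other proteasome activators and special core subunits and 0.02 for other bromodomain readers.

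Markers of testis cells were measured beside these genes. All 13 genes of spermatocytes, 12 of round spermatids and 13 of elongating spermatids on the lists were tested, with medians of 0.0058, -0.056 and -0.098. The summed signal of the elongating spermatid markers was 234411 to 240011 in *Ccnyl1*-/- and 244768 to 247981 in WT testes. Most of these markers had mean signals of at least 5000, where the median over all tested probe sets was -0.036. Spermatocyte markers summed to 99615 to 102755 in *Ccnyl1*-/- and 98373 to 99379 in WT testes, with 7 genes positive and 6 negative. Macrophage markers summed to 2552 to 2953 in *Ccnyl1*-/- and 3027 to 3934 in WT testes (median -0.15). Leydig cell markers varied most between mice, from 5220 to 9293 in *Ccnyl1*-/- and from 3935 to 7149 in WT testes (median 0.43 over 5 of 8 genes). Markers of spermatogonia, Sertoli cells, peritubular cells and endothelium had medians of 0.01, 0.10, 0.10 and -0.04. Of the blood markers 3 of 5 genes were tested, with mean signals of 36.7 to 228. All 3 were negative (median -0.12), and they summed to 314 to 329 in *Ccnyl1*-/- and 353 to 368 in WT testes. Of the epididymis markers 2 of 6 were tested, with mean signals of 37.7 and 191.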

How the data were processed

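The authors hybridised testis RNA of each mouse to 1 Affymetrix array, and the submitters' notes name MAS5. The deposited intensity values are its signals, which subtract background, correct each probe by its mismatch partner and scale each array by 1 factor. The methods state a trimmed mean of 100. The deposited arrays have 500.0, so the offset of 16 and the minimum of 32 act at a lower brightness, and both were kept. The annotation gave 1 gene for 34945 of 45037 probe sets, several for 932 and none for 9160. All 9 member symbols matched a RefSeq gene identifier. log2(signal + 16) was fitted in R 4.3.3 with limma 3.58.1 (lmFit, eBayes with a variance trend) on the genotype alone, with a threshold of 0.05 on the adjusted p, and checked on simulated data. Precision is limited by there being only 4 arrays.

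The members and lists were chosen with earlier results of these data known. Named in the text are all members, *Ccnyl1*, and from each list of other genes those past the test and the 2 with the largest absolute log2 fold change. Genes named beyond these (*Rnf168*, *Ube2n*, *Herc2*, *H2ax*, *Mdc1*, *Phf7*, *Kdm3b*, *Psma8*, *Tnp1*, *Prm1*) were chosen for their roles or after their values were seen. Alternatives changed the offset, the minimum, the scaling, the variance estimate, the test, the replicate block and the mice included.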

Additional observations from a re-analysis of the deposited data

How the results depend on the processing

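Across 15 alternatives no probe set of the 9 genes was called. Of the 21 tested probe sets, 9 kept their sign in each alternative that tested them, *Rnf8* among them with -0.38 to -0.26. Alternatives that changed only the minimum, the variance estimate, the test or the block left the log2 fold changes as they were, so they could not turn a sign. Leaving out a mouse could not turn it either where the genotypes did not overlap. With arrays scaled to one median, the median over the 21 was -0.064 (0.0074 as reported) and 7 probe sets of the whole array were called, against 4 as reported. Signs turned there for *Brd3* 1423199_at (-0.064), *Kdm3a* (-0.075), *Psme4* 1426824_at (-0.033), *Epc1* 1418850_at (-0.045) and *Kat5* 1433980_at (-0.063). With quantile normalization they turned for *Brd3* 1460328_at (0.012) and 1423199_at (-0.047) and for *Psme4* 1452211_at (0.024). Over the whole array, eBayes without the trend and the methods' t-test called 0 (1964 probe sets had an unadjusted p under 0.05 in the fit with the trend).

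The deviations of mice with the same replicate number correlated at 0.014 over all tested probe sets and at 0.093 over those with a mean signal of at least 100, so the numbers were not taken to pair the mice. The replicate block gave 14 calls over the whole array and 0 among the 9 genes.

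Without 1 mouse the calls over the whole array ran from 6 to 55 (7 without *Ccnyl1*-/- replicate 1, 46 without WT replicate 1 and 55 without WT replicate 2), and the median over the 21 from -0.032 (without WT replicate 2) to 0.038 (without *Ccnyl1*-/- replicate 1). Signs turned for *Brdt* 1444667_at (-0.0081 to 0.30), *Brd3* 1450902_at (-0.13 to 0.020), 1460328_at (-0.051 to 0.049) and 1423199_at (-0.045 to 0.060), *Chd5* (-0.11 to 0.29), *Kdm3a* (-0.051 to 0.057), *Psme4* 1452211_at (-0.040 to 0.011), *Epc1* 1418850_at (-0.091 to 0.16) and 1429914_at (-0.046 to 0.35), and *Kat5* 1433980_at (-0.14 to 0.17) and 1433981_s_at (-0.20 to 0.19). Signals rescaled to a trimmed mean of 100 left 20 member probe sets in the test, without *Psme4* 1446464_at. The causes were not tested.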

Other observations

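*Kat7* and *Actl6a*, acetyltransferase and remodelling genes outside the 9, were each positive on all 3 of their tested probe sets, although none passed the test. They were chosen because their brightest probe sets had an unadjusted p under 0.05 (limma), as did those of *Prm1* and *H2bl1*. The brightest of the 3 thus carried the choice, and the share of genes positive on all their probe sets was not counted. *Prm1* had values on both sides of 0 on its probe sets (0.09 and -0.05 among them), and *H2bl1* had -0.14. Over the array, 20.6% of tested probe sets were higher in *Ccnyl1*-/- testes without overlap, and 57.8% of those with a mean signal under 1000 were positive. *Kat7*, the catalytic subunit of the HBO1 acetyltransferase complexes, had log2 fold changes of 0.21, 0.14 and 0.29, and the genotypes did not overlap on the first and the third. *Actl6a*, which encodes a subunit that TIP60 shares with other remodelling complexes, had 0.22, 0.16 and 0.16, and the genotypes did not overlap on the 2 brighter ones. *Trp53bp1* had -0.17 and -0.22 on its 2 bright probe sets, none past the test, and values on both sides of 0 on the tested dim ones (0.20, -0.10 and 0.24).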
